A study of Mus musculus with 6 samples.

Results

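Protocadherins are the largest family of cadherin-type adhesion molecules. Their rows were taken from a comparison of 2 sorted populations of cultured mouse male germline stem cells. A member was any row of the authors' deposited table whose Ensembl identifier belongs, in the GENCODE M21 annotation, to a protein-coding gene with a symbol that starts with Pcdh. This gave 58 genes of 22432: 4 of the alpha cluster, 21 of the beta cluster, 21 of the gamma cluster and 12 non-clustered genes. M21 lists 69 such genes, and the other 11, which are 10 alpha genes and Pcdhb1, were not analysed here.

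Total RNA had been taken from germline stem cells, which renew themselves and sustain sperm production, grown on DR4 mouse embryonic fibroblast feeders to passage 6 to 8. The populations, CDH1+/THY1+ (3 samples) and CDH1-/THY1+ (3 samples), were sorted for or against the adhesion protein E-cadherin (CDH1), all with the surface glycoprotein THY1. Each population came from the male cultures RP7 (age label 8 weeks), RP5 (19 days) and WT1 (5 weeks). The strain was labelled "OCT4/GFP; Dox-OCT4" for RP5 and RP7, and C57BL/6 for WT1. Both populations were thus raised in the presence of feeder fibroblasts, and the labels do not say how many animals stand behind a culture. The 8 germ cell markers examined had mean counts of 2370 to 14797, so germ cell RNA was present.

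The deposited table holds 1 value per gene for the whole comparison: the mean normalised count over all 6 libraries, the log2 fold change with its standard error, and DESeq2's Wald test. No value per sample and no total count per sample was at hand, so the spread within a population is unknown here. A log2 value written with ± is the authors' log2 fold change with its standard error, where CDH1+/THY1+ is divided by CDH1-/THY1+, and a gene was called when its adjusted p was under 0.05. The direction rests on the name of the table, since Cdh1 was not analysed here. The fold changes had been shrunken towards 0, with standard errors of at most 0.639, so they understate the change of genes with few reads. In bulk RNA, fewer cells of a type and less RNA per cell cannot be told apart.

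The clustered protocadherins lie side by side on chromosome 18 and are best known from neurons. There each cell uses a small choice of variable exons, every one with its own promoter, and the resulting mix of surface proteins lets a neuron tell its own branches from those of others. Alpha and gamma transcripts join a variable exon to constant exons shared by the whole cluster, whereas beta genes have no constant exons. The non-clustered genes are scattered over the genome and act in cell sorting, migration and adhesion of many embryonic tissues.

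Of the 58 protocadherins, 44 had an adjusted p-value in the authors' deposited table, and by DESeq2 9 of these were called higher and 1 lower in CDH1+/THY1+ cells. That is 20.5% higher and 2.27% lower, while 17.1% of all 19211 genes with an adjusted p were called higher and 16.4% lower. The share called higher was thus near that of all genes, and the share called lower was below it. Among the remaining 14 rows, 7 had a p-value but a mean count too low for an adjusted one, and 7 had no p-value at all. The fold change was above 0 in 52 of the 58 rows (89.7%), against 50.6% of all rows. The median log2 fold change was 0.68 (quartiles 0.29 and 1.10), against 0.01 for all rows. Without the tenth of rows with standard errors that were highest among genes of like mean count, only 2 of the 9 higher calls remained, Pcdhgb6 and Pcdhgc5. The median log2 fold change of the protocadherins left was then 0.41. The 20 fibroblast marker genes examined beside them were all above 0 as well (median log2 fold change 0.92), and their part in these values was not tested.

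**Figure D1:**
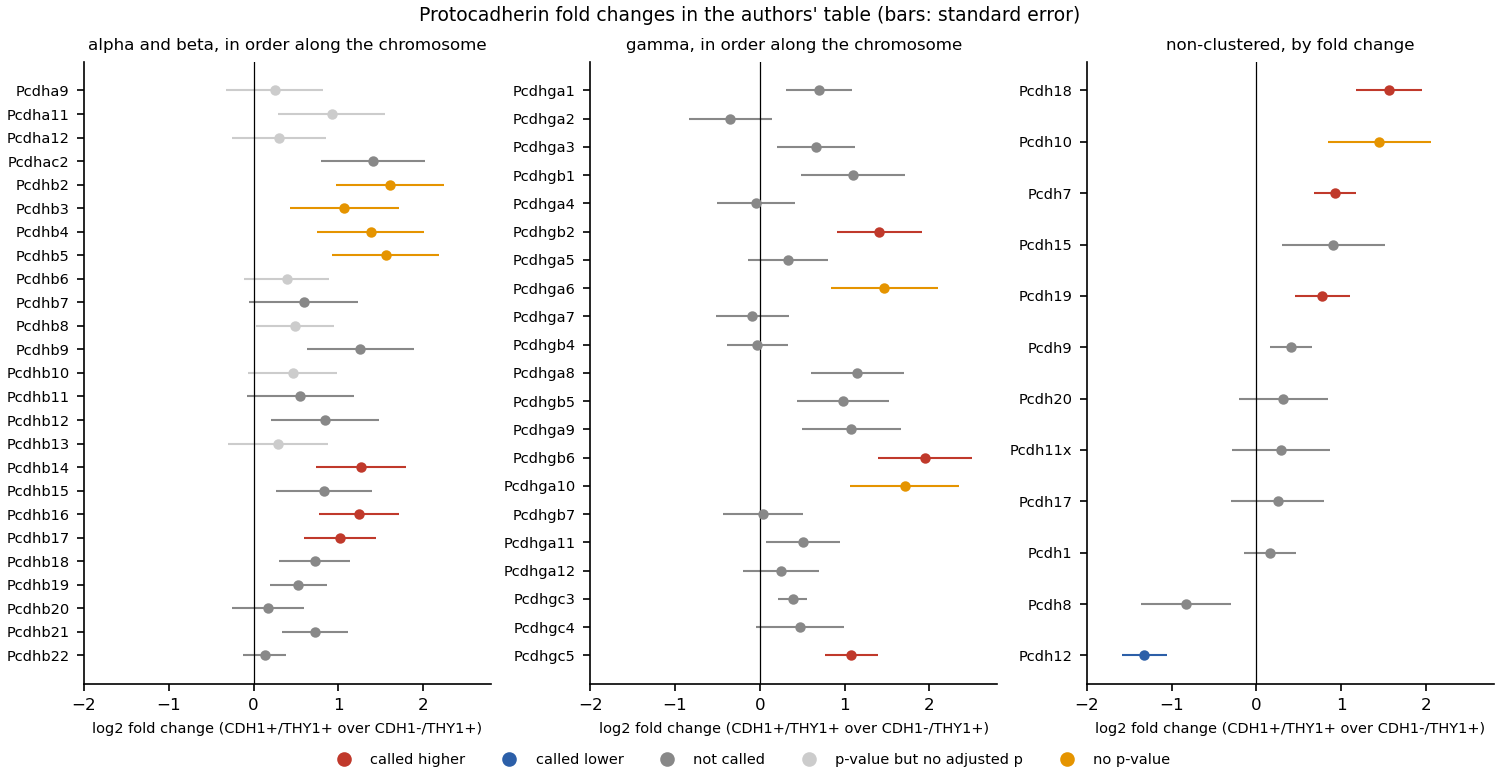
Log2 fold change of each of the 58 protocadherins with the authors' standard error as a bar; clustered genes stand in their order along the chromosome and non-clustered genes by fold change. The 9 genes called higher and the 1 called lower are coloured, as are the 7 rows without a p-value, 4 of which are the neighbours Pcdhb2 to Pcdhb5.

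The non-clustered genes carried 52.5% of the family's summed mean counts and were called higher in 3 (27.3%) and lower in 1 (9.09%) of 11 tested rows, against 17.1% and 16.4% of all genes. The 3 higher genes, Pcdh7, Pcdh18 and Pcdh19, are shown by the 250 bases before their RefSeq start site. They were chosen as the genes called higher that lie outside the chromosome of the clusters. Their levels per length were among the family's highest. The sequences are those of RefSeq on GRCm38.p6, written 5′ to 3′ on the gene's strand, with each CG dinucleotide, the site of DNA methylation in mammals, in capitals.
Pcdh7, chr5:57717831-57718080, plus strand: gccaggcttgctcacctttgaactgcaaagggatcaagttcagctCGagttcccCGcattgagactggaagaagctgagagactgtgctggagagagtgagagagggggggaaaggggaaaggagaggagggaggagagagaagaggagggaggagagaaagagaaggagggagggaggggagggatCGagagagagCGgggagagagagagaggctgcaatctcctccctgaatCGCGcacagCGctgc
Pcdh18, chr3:49757317-49757566, minus strand: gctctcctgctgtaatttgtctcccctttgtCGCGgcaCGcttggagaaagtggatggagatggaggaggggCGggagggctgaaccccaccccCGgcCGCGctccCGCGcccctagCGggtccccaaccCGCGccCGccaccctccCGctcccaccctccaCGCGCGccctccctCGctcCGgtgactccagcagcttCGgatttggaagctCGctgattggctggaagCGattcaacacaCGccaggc
Pcdh19, chrX:133688994-133689243, minus strand: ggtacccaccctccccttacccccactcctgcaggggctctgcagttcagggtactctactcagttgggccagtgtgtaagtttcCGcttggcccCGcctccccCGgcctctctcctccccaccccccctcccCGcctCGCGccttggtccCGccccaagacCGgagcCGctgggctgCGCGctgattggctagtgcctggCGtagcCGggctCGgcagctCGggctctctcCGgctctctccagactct
The Pcdh7 window held 7 CG dinucleotides, a number reached by 46.3% of the 32851 RefSeq promoter windows of that length. Part of this window lies inside the gene as GENCODE places it, from 57717967. Pcdh18 held 23, reached by 13.3% of windows, and Pcdh19 held 16, reached by 25.4%. RefSeq windows were found for 9 of the 12 non-clustered genes, with 3 to 23 CG dinucleotides. Among those not called or without a p-value, Pcdh10 held 22, Pcdh17 21, Pcdh9 18, Pcdh8 11, Pcdh15 6 and Pcdh20 3.

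Pcdh18, a delta-2 protocadherin whose cytoplasmic part binds the adaptor DAB1, had the largest called fold change of the non-clustered genes. It lies on chromosome 3 from 49743296 to 49757325 in GRCm38, had a mean count of 379, and rose 2.95-fold by the authors' deposited table (log2 1.56 ± 0.39, adjusted p = 0.000495 by DESeq2). Pcdh7, a delta-1 protocadherin whose cytoplasmic part binds protein phosphatase 1 and the inhibitor SET, was the most abundant gene of the group. On chromosome 5 from 57717967 to 58133230, it had a mean count of 1137 and rose 1.91-fold by the authors' deposited table (log2 0.93 ± 0.25, adjusted p = 0.000963 by DESeq2). The X-linked Pcdh19 (133582860 to 133688987), a delta-2 gene mutated in an epilepsy that affects mainly girls, had a mean count of 407 and rose 1.72-fold by the authors' deposited table (log2 0.78 ± 0.32, adjusted p = 0.0453 by DESeq2). The Pcdh19 call ended under a Benjamini-Yekutieli adjustment of the authors' p-values (0.588), which left those of Pcdh18 (0.00702) and Pcdh7 (0.0135).

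Pcdh12 was the only protocadherin called lower. It encodes an adhesion protein first described in endothelial cells and lies on chromosome 18, downstream of the gamma cluster. Its mean count was 101 and it was 2.50-fold lower in CDH1+/THY1+ cells by the authors' deposited table (log2 -1.32 ± 0.27, adjusted p = 8.65e-06 by DESeq2). Its standard error was at the 38th percentile of the 200 rows of nearest mean count, so it was not large for the level. The endothelial marker genes Kdr and Tek stood at -0.50 ± 0.39 and 0.58 ± 0.38 in the authors' deposited table, and none of the 3 endothelial rows was called.

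Pcdh10, a delta-2 gene whose protein recruits the WAVE actin-regulating complex, had a mean count of 179 with a log2 fold change of 1.45 ± 0.61 in the authors' deposited table, but no p-value. Pcdh1, known from airway epithelium, and Pcdh9, a delta-1 gene, were abundant and were not called. Pcdh1 had a mean count of 464 with a log2 fold change of 0.16 ± 0.31 (adjusted p = 0.746 by DESeq2), Pcdh9 a mean count of 286 and 0.41 ± 0.25 (adjusted p = 0.211) in the authors' deposited table. Exons of unrelated genes on the opposite strand overlap Pcdh7, Pcdh8, Pcdh10 and Pcdh19. Whether the counting used strand is not given in the sources used here. The remaining 5 genes, Pcdh8, Pcdh11x, Pcdh15, Pcdh17 and Pcdh20, had mean counts of 10.6 to 18.6 in the authors' deposited table and no call. Among them Pcdh8, the paraxial protocadherin of the early mesoderm, stood at -0.83 ± 0.53 and Pcdh15, a component of the tip link of hair cells, at 0.91 ± 0.61 in the authors' deposited table.

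Levels of different genes were compared as mean counts per kilobase of exon that no other gene shares on the same strand. On that scale Pcdhgc3 had 365, Pcdh7 107, Pcdh18 70.7, Pcdh1 52.8, Pcdh9 42.2 and Pcdh19 38.9, from the mean counts of the authors' deposited table. The median of all rows was 32.2 and that of the 58 protocadherins 6.17. The family was thus mostly expressed at a low level, with those 6 genes above the median of all rows and Pcdhga6 just above it at 32.3. This scale assumes that reads in shared exons were not counted, which the sources used here do not say. Over all exonic bases, Pcdhgc3 had 224 mean counts per kilobase and still led the family.

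The gamma cluster carried 33.7% of the family's summed mean counts in the authors' deposited table, and 63.8% of that came from Pcdhgc3 alone. Pcdhgc3 belongs to the C-type genes at the end of the cluster, which in neurons are not subject to random choice, and it had a mean count of 1234. Its log2 fold change was 0.39 ± 0.17 and it was not called (adjusted p = 0.0698 by DESeq2 in the authors' deposited table). The antisense gene BC037039, whose exons overlap those of Pcdhgc3, had a mean count of 21.1 with a log2 fold change of 0.00 ± 0.48 in the authors' deposited table. The other C-type genes, Pcdhgc4 and Pcdhgc5, had mean counts of 12.6 and 88.1.

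In the gamma cluster 3 of 19 tested genes were called higher and 0 lower, which is 15.8% against the 17.1% of all genes called higher. By DESeq2 without adjustment, 5 gamma genes had a p under 0.05, while 33.5% of all tested genes were called in either direction even after adjustment. Pcdhgb6 had the highest fold change of all 58 protocadherins in the authors' deposited table, 3.86-fold (log2 1.95 ± 0.55, adjusted p = 0.00203 by DESeq2), at a mean count of 11.0. Pcdhgc5 rose 2.11-fold (log2 1.08 ± 0.31, adjusted p = 0.00261 by DESeq2) and Pcdhgb2, with a mean count of 34.4, 2.66-fold (log2 1.41 ± 0.50, adjusted p = 0.0184) in the authors' deposited table. Pcdhga6 and Pcdhga10 had mean counts of 84.5 and 70.6 and log2 fold changes of 1.47 ± 0.63 and 1.71 ± 0.64 in the authors' deposited table, but no p-value.

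The 3 called gamma genes were not adjacent to each other. Next to Pcdhgb2 lay Pcdhga4 at -0.05 ± 0.46 and Pcdhga5 at 0.33 ± 0.47 in the authors' deposited table. Next to Pcdhgb6 lay Pcdhga9 at 1.08 ± 0.58, which was not called, and Pcdhga10, which had no p-value. Before them lay Pcdhga8 at 1.15 ± 0.55 and Pcdhgb5 at 0.98 ± 0.54, and after them Pcdhgb7 at 0.04 ± 0.47, by the authors' deposited table, none of them called. The 4 gamma genes with a fold change below 0 were Pcdhga2 (-0.35 ± 0.49), Pcdhga4, Pcdhga7 (-0.09 ± 0.43) and Pcdhgb4 (-0.03 ± 0.36) in the authors' deposited table, and none was called. By subfamily the median log2 fold change was 0.58 over 12 Pcdhga, 1.04 over 6 Pcdhgb and 0.47 over 3 Pcdhgc genes. Only 33.2% to 68.5% of a gamma gene's exonic bases were not shared with other genes on the same strand, so the authors' counts of these genes may have been split or left out by rules that could not be checked here. The non-coding gene Gm26672 on the opposite strand overlaps Pcdhga10, Pcdhgb7, Pcdhga11 and Pcdhga12 and had a mean count of 6.38 in the authors' deposited table.

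**Figure D2:**
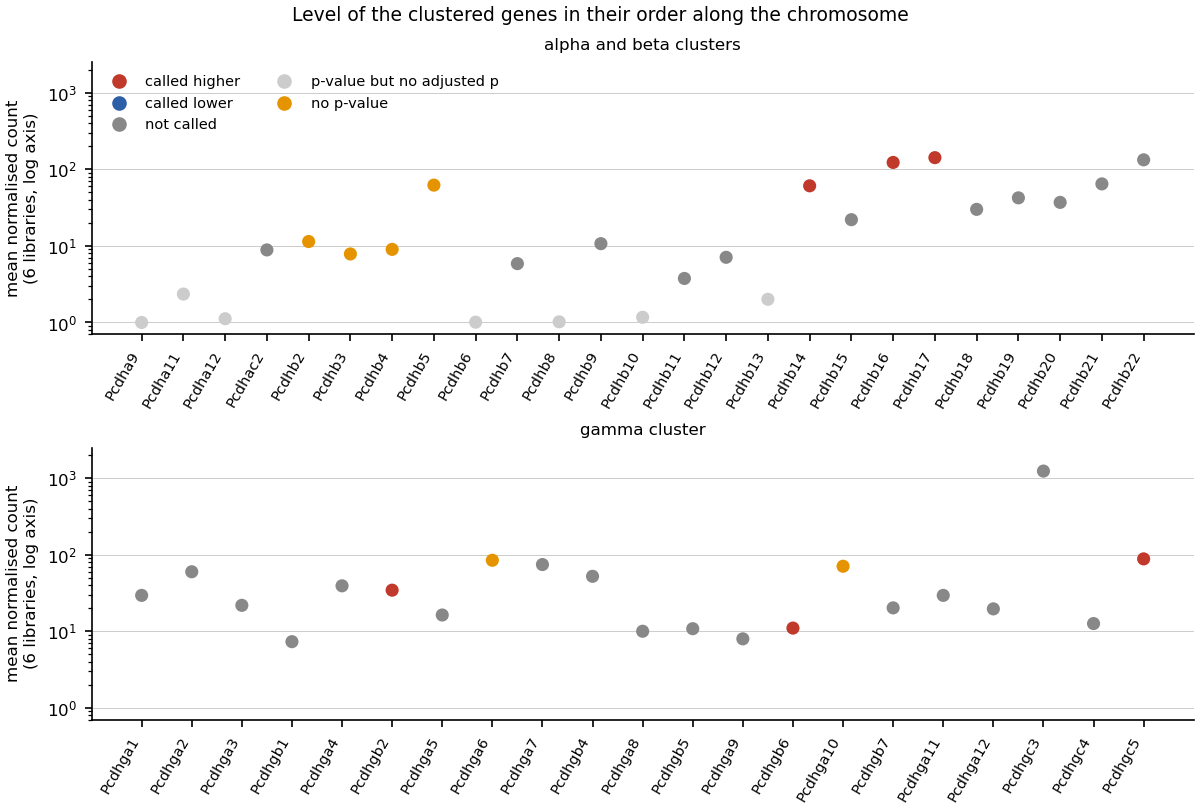
Mean normalised count over the 6 libraries (log axis) of the alpha, beta and gamma genes in their order along the chromosome, coloured as called, not called or without a p-value. The level steps up between Pcdhb13 and Pcdhb14, and Pcdhgc3 at 1234 stands above all others, the next being Pcdhb17 at 142.

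The beta cluster carried 13.6% of the family's summed mean counts, and all 21 of its rows had a fold change above 0 in the authors' deposited table, with a median log2 fold change of 0.72. Among the 9 low beta genes whose reads could be recovered, 70.7% of the reads came from 1 of the 6 libraries, library E, and its part in the direction was not tested. Of its 13 tested genes 3 were called higher and 0 lower by DESeq2, 23.1% against 17.1% of all genes called higher. The 3 called genes were near neighbours. Pcdhb16, with a mean count of 123, rose 2.35-fold (log2 1.24 ± 0.47, adjusted p = 0.0283 by DESeq2), and Pcdhb17, with 142, 2.03-fold (log2 1.02 ± 0.42, adjusted p = 0.0458) in the authors' deposited table. Pcdhb14, with a mean count of 60.9, rose 2.41-fold (log2 1.27 ± 0.53, adjusted p = 0.0462 by DESeq2 in the authors' deposited table). With the Benjamini-Yekutieli adjustment none of the 3 remained called (adjusted p = 0.370 to 0.601). Pcdhb22, at the end of the cluster, had a mean count of 133 with a log2 fold change of 0.13 ± 0.25 and was not called (adjusted p = 0.730 by DESeq2 in the authors' deposited table).

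Levels differed along the beta cluster. The 9 genes from Pcdhb14 to Pcdhb22 had mean counts of 22 to 142 (median 60.9) in the authors' deposited table. Of the 12 genes from Pcdhb2 to Pcdhb13, 11 had mean counts of at most 12, and only Pcdhb5, at 62.2, reached the level of the other segment. The median log2 fold change was 0.72 in both segments, but all 3 called beta genes lay between Pcdhb14 and Pcdhb22. The 9 beta genes found with at least 50% of their reads in library E all lay between Pcdhb2 and Pcdhb13. The part of library E in that segment's median was not tested. The 4 beta genes without a p-value, Pcdhb2 to Pcdhb5, lay next to each other and had log2 fold changes of 1.07 to 1.61 in the authors' deposited table.

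Of the alpha cluster 4 of 14 annotated genes were analysed, and they carried only 0.232% of the family's summed mean counts. Pcdhac2, a C-type gene, had a mean count of 8.86 with a log2 fold change of 1.41 ± 0.61 by the authors' deposited table, without a call (adjusted p = 0.0570 by DESeq2; p = 0.0207 without adjustment). Pcdha9, Pcdha11 and Pcdha12 had mean counts of at most 2.35 there and no adjusted p.

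A missing p-value was more frequent among protocadherins than elsewhere. It affected 7 of the 58 (12.1%), namely Pcdhb2, Pcdhb3, Pcdhb4, Pcdhb5, Pcdhga6, Pcdhga10 and Pcdh10, against 102 of 22432 rows (0.455%) of the authors' deposited table. By default DESeq2 leaves a p-value empty where a single library holds an outlying count, though no source used here gives the settings. The standard errors of these 7 genes were at the 98th percentile or above among rows of like mean count. Of the 9 genes called higher, 7 also had standard errors at or above the 90th percentile, from 90.5 for Pcdh7 to 98.5 for Pcdh18, while Pcdhgb6 and Pcdhgc5 were at 51 and 49.5. In all, 21 of the 58 protocadherins lay at or above the 90th percentile, 11 of them in the beta cluster.

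**Figure D3:**
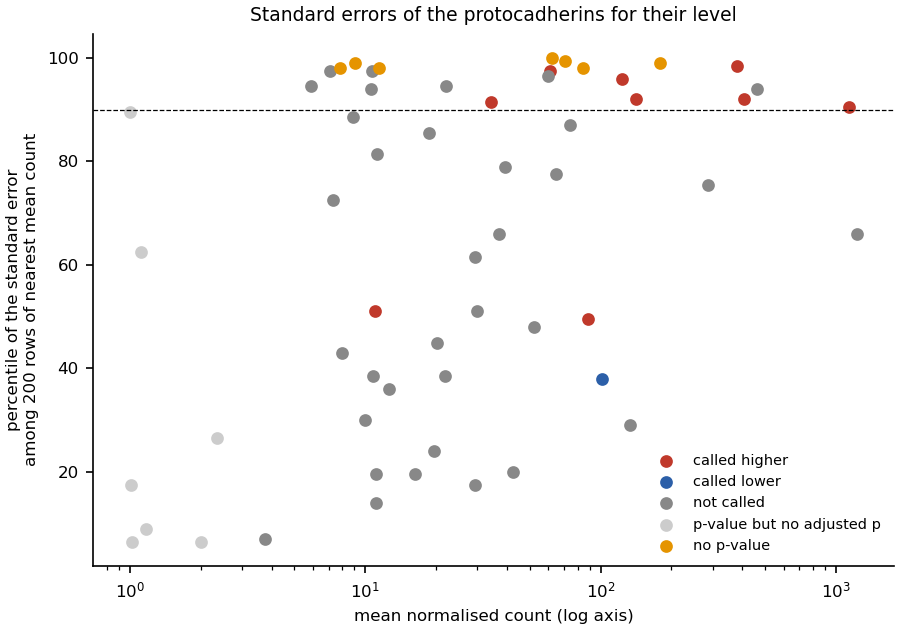
Percentile of each protocadherin's standard error among the 200 rows of nearest mean count (vertical axis) against its mean normalised count (log axis); the dashed line marks the 90th percentile. The 7 genes without a p-value lie at 98 or above, and 7 of the 9 genes called higher lie above the line.

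The reads behind the low mean counts could be worked out per library. Each read raises the mean by a step that depends on the size factor of its library, and the spacing of the low values showed 6 such steps. They gave size factors of 1.08, 1.02, 1.01, 0.996, 0.976 and 0.913, and the libraries are called A to F in that order. They carry no names and were not assigned to a culture. Only library E could be placed in a population, by the fold changes given below. Of 25 protocadherins with a mean count under 13, 18 had a single set of whole reads that gave the deposited mean. The other 7 had more than 1 set, and their reads are not given.

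Library E held at least 50% of the reads of each of the 9 low beta genes whose reads were recovered. Pcdhb4, without a p-value, had 46 of its 53 reads in library E, and 3, 0, 1, 1 and 2 in libraries A, B, C, D and F. Pcdhb3, also without a p-value, had 37 of 46 reads in library E, and 1, 1, 3, 1 and 3 in the others. Both genes were thus near 0 in 5 libraries and present in 1. Pcdhb12 had 24 of 42 reads in library E and 7, 1, 3, 1 and 6 in A, B, C, D and F, and Pcdhb7 had 21 of 35 there and 3, 1, 6, 4 and 0 in the others. Pcdhb11 had 14 of 22, Pcdhb13 6 of 12, Pcdhb8 5 of 6, Pcdhb10 5 of 7 and Pcdhb6 4 of 6 reads in library E. Together the 9 genes had 70.7% of their 229 reads in that library.

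The other groups were less uniform. Pcdhac2 had 28 of its 53 reads in library E and 11, 5, 3, 2 and 4 in A, B, C, D and F. Pcdh15 had 34 of 63 reads in library E and 4 to 8 in each of the others. Pcdha11 had 7 of 14 reads in library E, Pcdha9 1 of 6 and Pcdha12 1 of 7. The 3 gamma genes each had less than 50% of their reads in library E. It was still the library with the most reads of Pcdhga9, 15 of 48, with 13 in B. Pcdhgb1 had 20 of 45 reads in library A and 10 in E, and Pcdhgc4 20 of 76 in B and 9 in E. Pcdh8, with a fold change below 0, had 19 of 66 reads in library C and 6 in E.

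Among all 6329 rows with a mean count under 8 and a single set of reads, library E held 17.9% of the reads, and 393 rows (6.21%) had at least 50% of their reads there. Of these 393 rows, 388 had a fold change above 0 in the authors' deposited table and 5 below. Rows rich in library E reads thus lay nearly all on the side of CDH1+/THY1+. This places library E among the CDH1+/THY1+ libraries, as far as the name of the table gives the direction. Among the 18 protocadherins the share of reads in library E was 45.0%, and 12 had at least 50% there. Leaving out these 12 and the 7 genes without a p-value, 17 genes in all since Pcdhb3 and Pcdhb4 are in both sets, left 41 protocadherins. Of these 35 (85.4%) had a fold change above 0, with a median of 0.51, an alternative chosen after seeing the data. Whether the more abundant genes followed library E was not tested, because their reads could not be recovered.

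**Figure D4:**
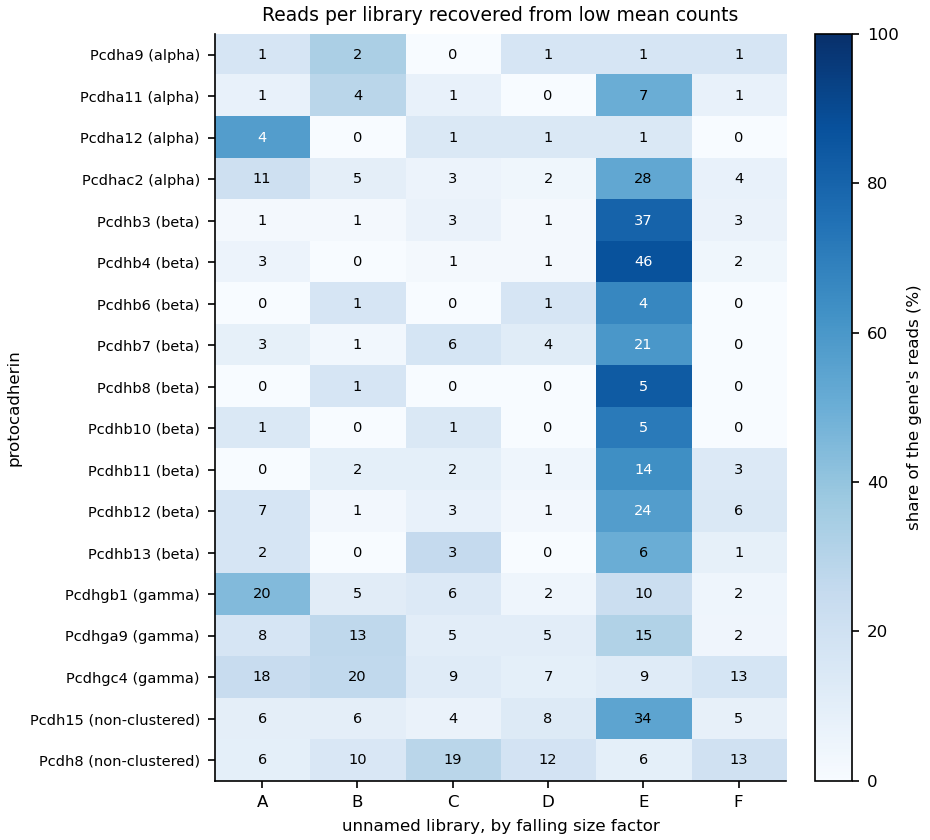
Reads in each of 6 unnamed libraries (columns A to F, by falling size factor) for the 18 protocadherins whose low mean count allows a single set of whole reads; the number is the read count and the shade its share of the gene's reads. Column E holds at least 50% of the reads of all 9 beta genes, but not of the 3 gamma genes or of Pcdh8.

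Genes that regulate or bind members of the family moved in both directions. Of 22 regulators of the clustered genes (promoter choice, chromatin loops, DNA methylation and silencing), 5 were called higher (22.7%) and 8 lower (36.4%), with a median log2 fold change of -0.31, against 17.1% and 16.4% of all genes. Ctcf, the factor that loops enhancers to the chosen protocadherin promoters, was 1.86-fold higher, with the authors' deposited table giving the values (log2 0.90 ± 0.19, adjusted p = 1.49e-05 by DESeq2). The histone methyltransferase gene Ehmt2 was lower (log2 -0.84 ± 0.16), as were the cohesin subunit gene Stag1 (-0.55 ± 0.11) and the methylcytosine dioxygenase gene Tet3 (-1.09 ± 0.23) in the authors' deposited table. The other 4 higher genes, Pds5a, Smc1a, Stag2 and Nipbl, belong to cohesin or its regulators, while the cohesin genes Rad21 and Pds5b were called lower.

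Of 32 genes for processing and signalling partners of protocadherins, 4 were called higher (12.5%) and 7 lower (21.9%), near the 17.1% and 16.4% of all genes, with a median log2 fold change of -0.03. The SET gene, whose product binds PCDH7, rose 2.15-fold (Set, log2 1.10 ± 0.23, adjusted p = 2.37e-05 by DESeq2) in the authors' deposited table, as did Pcdh7 itself. The PCDH18 partner gene Dab1 fell (log2 -0.97 ± 0.20, adjusted p = 1.65e-05 by DESeq2), opposite to Pcdh18, in the authors' deposited table. Ret, a receptor tyrosine kinase gene (-1.14 ± 0.22), and Fyn, a kinase gene (-0.78 ± 0.16), were lower in the authors' deposited table. Rac1 and Nckap1 were also called higher.

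Other cadherin-type genes did not share the median above 0 of the protocadherins. Among 18 other non-classical cadherins, with a median log2 fold change of -0.19, 15 had an adjusted p, of which 4 were higher and 4 lower (26.7% each, against 17.1% and 16.4% of all genes). The planar polarity cadherin gene Celsr1 rose (1.66 ± 0.34), whereas Celsr2 (-1.39 ± 0.24) and the calsyntenin genes Clstn1 (-0.58 ± 0.13) and Clstn2 (-1.68 ± 0.24) fell in the authors' deposited table. The other called genes were Celsr3, Cdhr1 and Fat4, which were higher, and Cdh23, which was lower. A further list held 19 mostly classical cadherins, with a median of -0.20. Of these 16 had an adjusted p, of which 1, the non-classical Cdh17, was higher (6.25%) and 3 lower (18.8%). Cdh4 (-2.0 ± 0.29), Cdh15 (-1.47 ± 0.29) and Cdh20 (-1.42 ± 0.49) were lower and Cdh17 (1.61 ± 0.61) was higher in the authors' deposited table. Of 13 tip link and Usher syndrome partners of Pcdh15, with a median of -0.85, 11 had an adjusted p, of which 0 were higher and 5 lower (45.5%). Among them Adgrv1 (-1.40 ± 0.16), Myo7a (-0.64 ± 0.15) and Cib2 (-0.92 ± 0.24), with Cdh23, fell in the authors' deposited table. No test of a difference between these lists and the protocadherins was run.

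**Figure D5:**
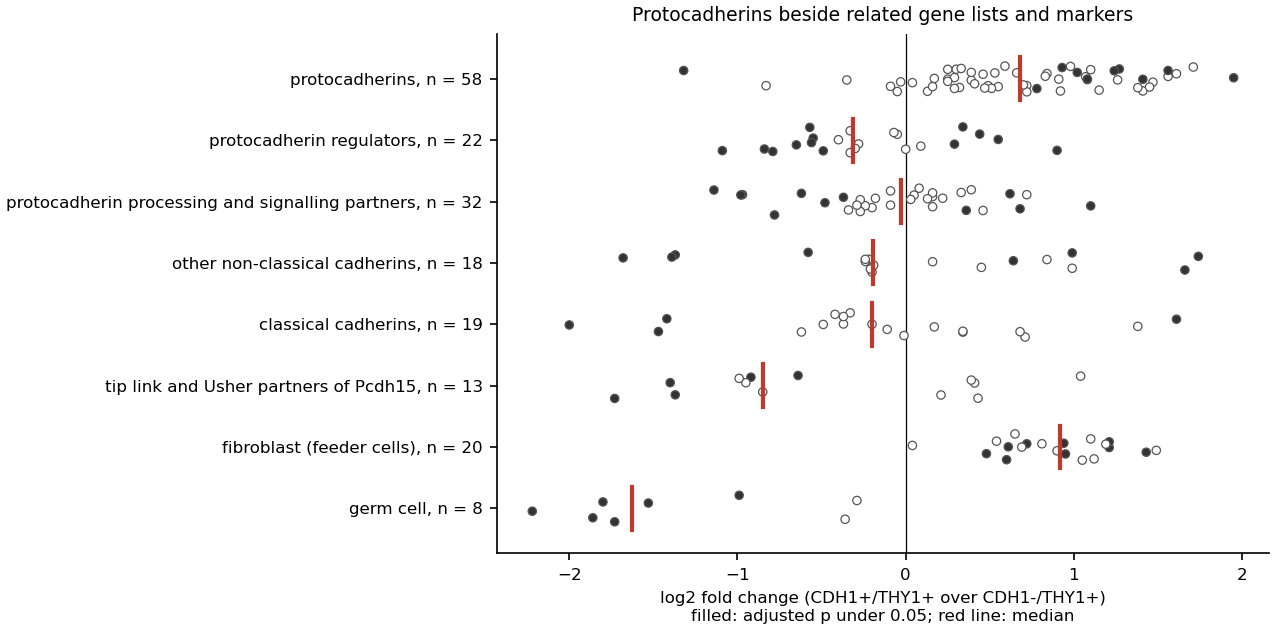
Log2 fold change of each gene (points; filled where the adjusted p was under 0.05) for the protocadherins, related gene lists, fibroblast markers and germ cell markers, with the median as a red line. The protocadherin median of 0.68 lies on the side of the fibroblast markers (0.92), while the germ cell markers lie at -1.63.

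Markers of feeder fibroblasts moved in the direction of most protocadherins. Of 20 fibroblast markers, 9 were called higher (45.0%) and 0 lower, against 17.1% and 16.4% of all genes. Among the 9 were Ccn1 (1.21 ± 0.16), Cald1 (1.21 ± 0.17), Fn1 (0.72 ± 0.14) and Vim (0.95 ± 0.26) in the authors' deposited table. None of the 7 defining markers was at 0: their mean counts ran from 1514 for Lum to 89729 for Col3a1, and their log2 fold changes from 0.04 for Postn to 1.49 for Pdgfra, with no call. Their median standard error percentile was 98.5, against 74.0 for the protocadherins. Of 8 germ cell markers, 0 were higher and 6 lower, with a median of -1.63. Sertoli cell markers had 1 of 6 tested rows called higher (Clu, 16.7%), which is near the share of all genes. The other lists were small as well. Peritubular and smooth muscle markers had 1 of 3 called higher (Cnn1, 33.3%), and neural and glial markers 2 of 7 (Tubb3 and Map2, 28.6%). Leukocyte markers had 2 of 3 (Cd68 and Ptprc, 66.7%) and Leydig cell markers 0 of 2. Apart from the germ cell list, none of these marker lists had a lower call. Their part in the protocadherin values was not tested.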

How the data were processed

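The authors measured total RNA, depleted of ribosomal RNA, in 6 stranded libraries sequenced on an Illumina NextSeq500, per the labels' protocols. Reads were trimmed, aligned and counted by the authors, whose notes to GEO (the submitters' processing notes) name Subread 1.5.0-p3 (featureCounts), Trimmomatic 0.32, DESeq2 1.12.3, TopHat2 2.1.1, R 3.3.1 and the build GRCm38.p4. On the model, the annotation used and how reads were counted, the sources used here give nothing. Per the file headers, the deposited values are the mean normalised count (a signal that is never negative), the log2 fold change and its standard error on the log2 scale, the Wald statistic as a score, and a p-value and adjusted p-value per gene. The authors' adjusted p-value was used as deposited, and no model was refitted.

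Symbols, exons and positions came from GENCODE M21, which matched 22317 of 22432 identifiers. Where labels do not name separate animals, p-values measure only the spread between these samples. Members and gene lists were chosen with earlier results of these data known. Standard errors were ranked among the 200 rows of nearest mean count. Reads per library were worked out to a tolerance of 2e-09 beyond rounding, from amounts found in mean counts under 1.6, which gave a single set for 6329 of 6350 rows under 8. This step and the Benjamini-Yekutieli adjustment were tested on simulated data. Named genes were every called protocadherin, every one with a mean count of at least 100, and per list at most 4 called genes of that level with the largest Wald statistic, and any defining marker; other names were chosen after their values were seen. Python 3.11.15, numpy 2.4.6 and pandas 2.3.3 were used. Alternatives were a stricter threshold, another adjustment, mean count minimums of 10 and 50, a 2-fold minimum, and leaving out large standard errors or shared exons. Some list genes are not reported here by name.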

Additional observations from a re-analysis of the deposited data

How the results depend on the processing

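Of 139 alternative values, 113 were classed as the same, 25 as weaker and 1 as moved, and none reversed. The first class allowed for some loss, such as from 9 to 7 higher protocadherins at a minimum of 2-fold. It also held the protocadherin median, which went from 0.68 to 0.41 without large standard errors, and counts of 0 that could not fall. The 9 protocadherins called higher became 4 at an adjusted p under 0.01, 4 under the Benjamini-Yekutieli adjustment over all rows with a p-value, and 2 without the tenth of rows with the largest standard errors. The 3 beta calls became 0 under each of these 3 settings, the 3 gamma calls 1 at a mean count of at least 50, and the 3 higher non-clustered calls 1 at a minimum of 2-fold and 0 without large standard errors. At an adjusted p under 0.01 the calls of Pcdh19 (0.0453), Pcdhb14 (0.0462), Pcdhb16 (0.0283), Pcdhb17 (0.0458) and Pcdhgb2 (0.0184) ended. They also ended under the Benjamini-Yekutieli adjustment (0.588, 0.601, 0.370, 0.595 and 0.243). The median of the 4 alpha genes, 0.61, moved to 1.41 when only Pcdhac2, the member with over 50% of its exonic bases to itself, was kept. Higher calls among the regulators went from 5 to 2 at an adjusted p under 0.01 and to 1 under the Benjamini-Yekutieli adjustment. Those of other non-classical cadherins went from 4 to 2 under both, and that of the list of mostly classical cadherins from 1 to 0 under both. The cause was not tested. No paired analysis was run. Apart from library E, which its fold changes placed in CDH1+/THY1+, the libraries were not assigned to a population, and none to a culture. Genes whose reads were not recovered have no value per library. For the same reason no library was left out and no depth per sample is given.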

Other observations

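The 8 protein-coding genes examined around and between the clusters on chromosome 18 did not move in 1 direction: 2 were called higher and 2 lower. Among all genes, 17.1% were called higher and 16.4% lower, so for so few genes these counts were near the shares of all genes. Taf7, a subunit gene of the general transcription factor TFIID that lies between the beta and gamma clusters, had a mean count of 3281 and fell 1.95-fold by the authors' deposited table (log2 -0.96 ± 0.14, adjusted p = 5.49e-11 by DESeq2). Slc25a2, a mitochondrial carrier gene next to it, had a mean count of 6.23 with a log2 fold change of -0.76 ± 0.63 in the authors' deposited table, without a call. Downstream of the gamma cluster, the formin gene Diaph1 was higher by 1.63-fold (log2 0.71 ± 0.22, adjusted p = 0.00654 by DESeq2), Hdac3 stood at -0.02 ± 0.16 and Rell2 fell (log2 -1.02 ± 0.40, adjusted p = 0.0341) in the authors' deposited table. Upstream of the alpha cluster, Hars2 was higher (log2 0.68 ± 0.17, adjusted p = 0.000353 by DESeq2), while Hars and Zmat2 stood at 0.04 ± 0.12 and 0.10 ± 0.16 in the authors' deposited table. These genes were chosen by position, as the nearest 3 protein-coding rows on either side and those between the clusters.

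Pcdhgb8, annotated as a polymorphic pseudogene of the gamma cluster and so not counted as a member, had a mean count of 3.07 and no p-value in the authors' deposited table. It had 17 of its 18 reads in library E and 1 in library D.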
